A study of Homo sapiens with 6 samples.

Results

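The transcripts described here come from 40 nuclear genes whose symbols begin with NDUFA, NDUFB, NDUFC, NDUFS or NDUFV followed by a digit, together with NDUFAB1, out of 19610 gene rows in the deposited count table. Of these, 37 encode the established nuclear subunits of respiratory complex I. The other 3 carry an NDUF symbol only: NDUFA4, whose product is now known as a subunit of cytochrome c oxidase, its paralog NDUFA4L2, and the readthrough transcript NDUFC2-KCTD14. RNA sequencing compared 3 libraries from SH-SY5Y cells given SGC707, a selective inhibitor of the protein arginine methyltransferase PRMT3, with 3 libraries from cells given the solvent DMSO, lettered A to C within each group, and values of 3 libraries are given in the order A, B, C. SH-SY5Y is an established human neuroblastoma line whose genotype the labels give as wild type in both groups, so all 6 libraries come from 1 cell line. The sources used here give neither the dose nor the length of treatment. They do not say that the letters mark separate cultures, so a p-value here reflects library-to-library spread that may be technical.

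Complex I, NADH:ubiquinone oxidoreductase, is the L-shaped entry point of electrons into the mitochondrial respiratory chain and pumps protons across the inner membrane. Its matrix arm holds the N module, where NADH is oxidised, and the Q module, where ubiquinone is reduced, and its membrane arm has a proximal and a distal part that move protons. The core subunits that carry out catalysis are split between the nuclear and the mitochondrial genome, and the remaining accessory subunits are all nuclear-encoded and stabilise or assemble the complex. Neurons and neuron-like cells depend heavily on this enzyme, and defects in its subunits are a known cause of inherited mitochondrial brain disease.

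Libraries differed in ways that touch these genes. Counts on nuclear genes were 7559322 to 8999358 with SGC707 and 6066305 to 6327895 with DMSO, while mitochondrially encoded transcripts took 24.3% to 37.7% of the counts with SGC707 and 46.7% to 60.7% with DMSO. SGC707 C was set apart by GC content. Over 11593 nuclear genes, the deviation of a library from the mean of each gene correlated with transcript GC content at a Spearman rho of -0.77 in SGC707 C, 0.53 in SGC707 A and 0.34 in SGC707 B, against -0.13 to 0.23 in the DMSO libraries. Adrenergic neuroblastoma markers were present, 9 of 10 of them at levels that could be tested, and TH, the rate-limiting enzyme of catecholamine synthesis, had 0 counts in all 6 libraries, which allows at most 0.194 to 0.257 CPM, depending on the library, as far as counting error goes. Summed over the 10 adrenergic genes, levels were 4235 to 5077 normalised CPM (counts scaled to a common library size) with SGC707 and 5452 to 6814 with DMSO, and the part of this in the results was not tested. All 4 blood markers were at 0. Summed levels of 4 Schwann-like markers were 0.857 to 1.63 normalised CPM with SGC707 and 1.43 to 2.74 with DMSO, those of 4 epithelial markers 1.03 to 2.14 and 1.37 to 2.58, and those of 8 mesenchymal markers 244.8 to 256.0 and 231.1 to 284.2.

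All 40 genes were detected in every library and passed the filter on low counts, with 4 to 1486 counts per gene and library, and at least 33 for the 37 established subunits. Levels are given as CPM scaled by TMM factors, which bring the bulk of genes to a common level. None of the 40 genes passed the test for a difference between SGC707 and DMSO (edgeR quasi-likelihood test, Benjamini-Hochberg adjusted p under 0.05 over 12196 tested genes), where 0.0246% of all tested genes did, 1 higher (0.0082%) and 2 lower (0.0164%). The lowest adjusted p was 0.181. In bulk RNA, fewer cells making a transcript and less of it per cell cannot be told apart. The limma-voom fit also called 0 of the 40, and DESeq2 0 of the 38 to which it gave an adjusted p; it gave none to NDUFC2-KCTD14 and NDUFA4L2. Without adjustment, p was under 0.05 for 7 genes that were higher and 1 that was lower, or 17.5% and 2.5% of the 40, against 5.62% and 7.13% of all tested genes. These counts moved with single libraries, for the 40 genes as for all genes. Without DMSO A they were 1 higher and 0 lower, against 2.19% and 4.005% of all tested genes, and without DMSO B 3 and 0, against 1.93% and 3.73%. Without DMSO C they were 9 and 1, against 6.34% and 7.42%. Without SGC707 A they were 2 and 1, against 3.99% and 6.50%, without SGC707 B 5 and 1, against 2.94% and 4.93%, and without SGC707 C 12 and 2, against 14.5% and 15.5%. After the correction for GC content and length they were 6 and 4, against 11.1% and 12.9%.

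Fitted log2 fold changes of SGC707 over DMSO were positive for 27 of the 40 genes, or 67.5%, against 52.8% of all tested genes. Their median was 0.19, against 0.02 over all tested genes, and the replicate spread of that median was 0.14 (SD between libraries of a group). It was 0.06 after the GC and length correction, which takes out a trend on each in every library, where the median of all genes was 0.01. With library totals alone the median was 0.87 and 15 of the 40 genes were called higher, but under that scaling the median over all tested genes was 0.69, and 21.1% of them were called higher and 0.254% lower, so the 40 genes lay 0.17 above all genes there and 0.16 above them with TMM. The SGC707 libraries lay wholly above the DMSO libraries in 10 genes, or 25% of the 40, against 10.8% of all tested genes, and wholly below in 1 gene, or 2.5%, against 9.78%. Per library, the median log2 difference of the 40 genes from their DMSO means was 0.43 in SGC707 A, 0.25 in SGC707 B and 0.10 in SGC707 C, and -0.11 to 0.09 in the DMSO libraries, so SGC707 C lay just above the highest DMSO library. The summed level of the 40 genes was 1126, 1040 and 971.5 normalised CPM with SGC707, against 840.6, 964.1 and 980.5 with DMSO, and these ranges overlapped.

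**Figure D1:**
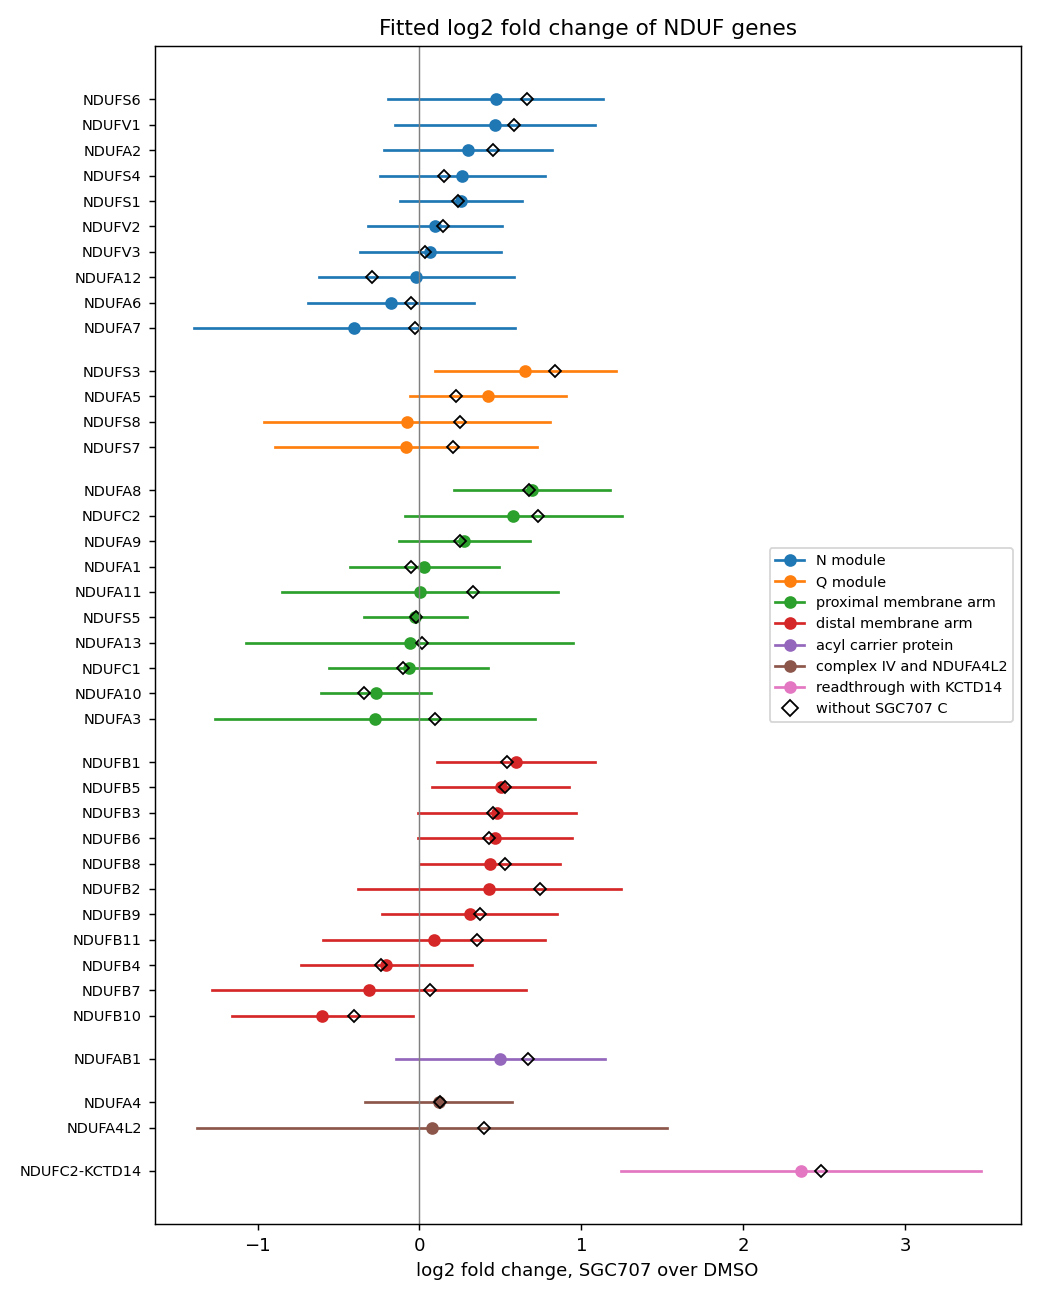
Fitted log2 fold change of SGC707 over DMSO (x axis) for 39 of the 40 genes, grouped by their place in complex I; circles are fits on all 6 libraries, lines their 95% intervals and open diamonds the fit without SGC707 C. Positive values make up 8 of 11 genes in the distal membrane arm, 7 of 10 in the N module, 5 of 10 in the proximal membrane arm and 27 of all 40, against 52.8% of all tested genes. NDUFC2-KCTD14 stands far from the rest at 2.36.

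Start-site sequence was examined because nuclear respiratory genes are known to share promoter elements for NRF1, for ETS factors such as GABPA and for YY1. RefSeq windows of 300 bases on GRCh38.p14, 250 before and 50 after a start, were matched for 33 of the 40 genes and searched on both strands. The NRF1 palindrome, spelled in capitals in the NDUFA8 sequence printed here, stood in 2 of the 33 genes (6.06%), against 2.72% of 9870 tested genes and 1.24% of all 35116 windows. Its shorter form GCATGCGC, which the palindrome contains, stood in 6 genes (18.2%), against 6.65% and 3.05%. The YY1 letters GCCATNTT, which on the opposite strand include AAGATGGC, stood in 13 genes (39.4%), against 12.9% and 6.58%, and AAGATGGC alone in 7 (21.2%), against 6.77% and 2.89%. The ETS letters CCGGAAG stood in 5 genes (15.2%), against 23.2% and 10.3%. GGGCGG (SP1) stood in 22 genes (66.7%), against 78.4% and 45.0%, CCAAT in 8 (24.2%), against 43.9% and 34.6%, and TATAAA in 3 (9.09%), against 7.92% and 11.5%.

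The YY1 letters lay wholly after the start in 11 of the 33 genes, against 7.47% of tested genes and 2.69% of all windows. In 9 of them the reverse complement of GCCATNTT lay on the strand of the gene, and in all 9 the ATG inside it was an annotated start codon of that gene, so these letters span the start of the coding sequence. The windows of NDUFA8, NDUFS3 and NDUFB8 are shown from 120 bases before to 30 after the start. Among the 33 genes with a window, these 3 had the smallest p of those that hold NRF1, ETS or YY1 letters. Capitals mark those letters: the NRF1 palindrome across the start of NDUFA8 (first base at -4), a pair of ETS matches before the start of NDUFS3 (first bases at -102 and -83) with YY1 letters after it (first base at 16), and YY1 letters after the start of NDUFB8 (first base at 18), with positions counted from 1 at the first base after the start.
NDUFA8, chr9:122159750-122159899, minus strand: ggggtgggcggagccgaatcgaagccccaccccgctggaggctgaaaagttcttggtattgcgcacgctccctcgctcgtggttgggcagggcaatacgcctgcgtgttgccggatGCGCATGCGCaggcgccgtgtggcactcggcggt
NDUFS3, chr11:47578954-47579103, plus strand: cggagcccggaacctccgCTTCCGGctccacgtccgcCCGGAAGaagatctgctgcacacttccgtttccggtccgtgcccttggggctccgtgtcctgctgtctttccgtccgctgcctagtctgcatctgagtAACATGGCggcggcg
NDUFB8, chr10:100529842-100529991, minus strand: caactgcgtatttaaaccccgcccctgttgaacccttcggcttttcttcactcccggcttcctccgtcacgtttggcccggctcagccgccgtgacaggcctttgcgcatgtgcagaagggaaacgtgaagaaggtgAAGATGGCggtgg
The 3 genes, picked by p, had log2 fold changes of 0.69, 0.65 and 0.44. NDUFS3 and NDUFB8 both held YY1 letters, while only NDUFA8 of the 3 held NRF1 letters and only NDUFS3 held ETS letters. All 3 also held the SP1 letters GGGCGG on either strand, which are not in capitals. A match describes letters and not bound protein.

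In the Q module, the site of ubiquinone reduction, no gene passed the test. NDUFS3 (GRCh38 chromosome 11, 47565336 to 47584562), a core subunit of early matrix arm assembly whose ETS and YY1 letters are printed above, stood at 20.4, 17.2 and 11.8 normalised CPM with SGC707, against 9.73, 11.5 and 10.2 with DMSO. Its groups did not overlap, but SGC707 C was barely above DMSO B. The log2 fold change was 0.65 (SE 0.24, 95% interval 0.09 to 1.22, edgeR adjusted p = 0.326), and without SGC707 C it was 0.84 and passed the test (edgeR adjusted p = 0.0322). After the GC and length correction on all libraries it was 0.52.

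The core subunits NDUFS7 and NDUFS8 were low in SGC707 C. NDUFS7, which carries the last iron-sulfur cluster before ubiquinone, stood at 17.7, 13.1 and 6.78 normalised CPM with SGC707, against 16.4, 12.6 and 10.98 with DMSO. NDUFS8, another iron-sulfur subunit, stood at 22.6, 15.6 and 7.25 normalised CPM with SGC707, against 15.5, 19.3 and 13.3 with DMSO. In both genes SGC707 A was the highest library and SGC707 C the lowest. Their log2 fold changes were -0.08 each (95% intervals -0.89 to 0.72 and -0.96 to 0.81), and were 0.21 and 0.25 without SGC707 C, so their direction turned with that library. NDUFA5, an accessory subunit of this module, stood at 81.2, 80.8 and 115.8 normalised CPM with SGC707, against 55.0, 72.5 and 79.5 with DMSO. Its groups did not overlap, with SGC707 C the highest library, and its log2 fold change was 0.42 (edgeR adjusted p = 0.452), or 0.23 without SGC707 C.

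In the N module, where NADH is oxidised, fold changes were positive for 7 of 10 genes and their median log2 value was 0.18 (0.05 after the GC and length correction), none passed the test and in none were the groups apart. NDUFV1, which binds the flavin that accepts electrons from NADH, stood at 34.4, 29.1 and 23.8 normalised CPM with SGC707, against 18.4, 15.7 and 29.1 with DMSO, so DMSO C lay within the SGC707 range (log2 fold change 0.47, 95% interval -0.15 to 1.08; 0.29 without DMSO B and 0.77 without DMSO C). NDUFV2, an iron-sulfur partner of NDUFV1, stood at 28.8, 34.0 and 28.0 normalised CPM with SGC707, against 26.4, 25.6 and 32.9 with DMSO. These groups overlapped too, and the log2 fold change was 0.10, or -0.07 after the GC and length correction. NDUFS1, the largest subunit and carrier of several iron-sulfur clusters, stood at 73.5, 86.8 and 82.8 normalised CPM with SGC707, against 63.6, 59.8 and 79.9 with DMSO. The groups overlapped through DMSO C, and the log2 fold change was 0.26 (95% interval -0.12 to 0.64), or 0.39 without DMSO C. Among the accessory subunits NDUFV3, NDUFS4, NDUFS6, NDUFA2, NDUFA6, NDUFA7 and NDUFA12 the log2 fold changes ran from -0.40 (NDUFA7) to 0.47 (NDUFS6), with edgeR adjusted p from 0.531 to 0.984.

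**Figure D2:**
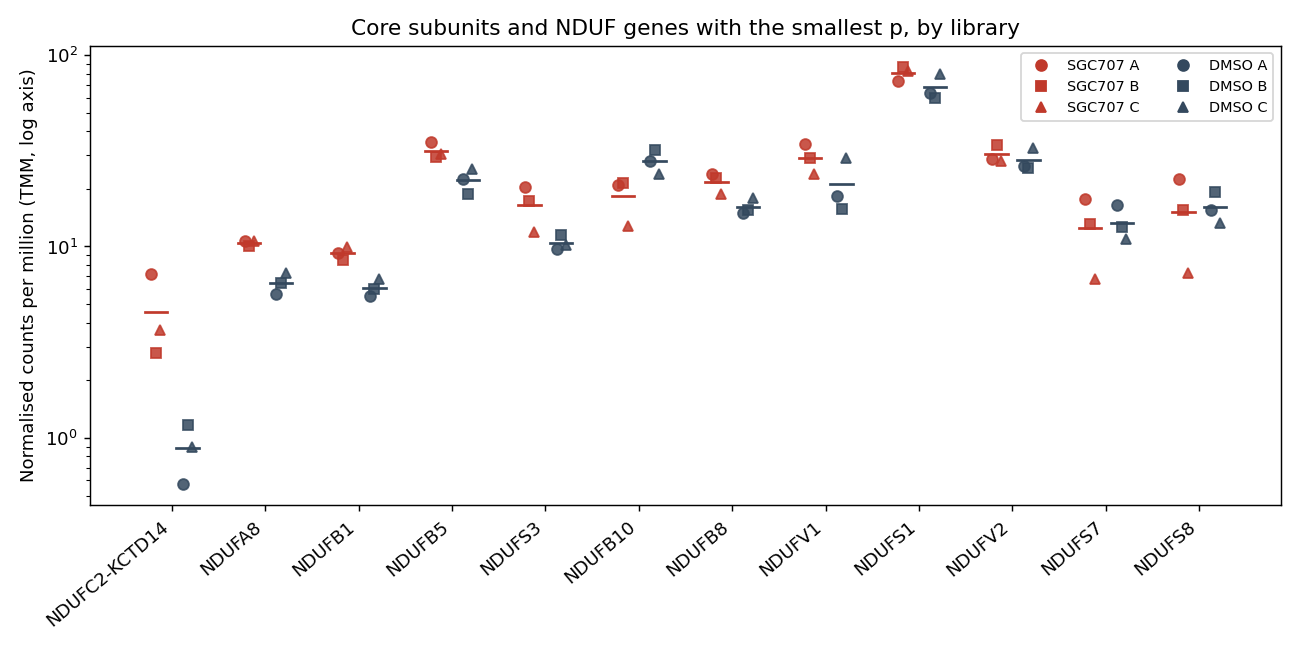
Normalised CPM (log axis) of core subunits and of genes with the smallest p, in each SGC707 and DMSO library; symbols mark the letter of the library and bars the group means. NDUFA8, NDUFB1 and NDUFB5 have compact groups that do not overlap, while NDUFS7 and NDUFS8 spread widely, with SGC707 C at 6.78 and 7.25.

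In the proximal membrane arm 5 of 10 genes were positive and 5 negative, with a median of -0.01, and none passed the test. NDUFA8, a cysteine-rich subunit on the intermembrane-space side (chromosome 9, 122144058 to 122159819), had the smallest p of the 37 established subunits, and is the gene with the NRF1 palindrome printed above. It stood at 10.7, 9.9996 and 10.7 normalised CPM with SGC707, against 5.63, 6.45 and 7.29 with DMSO. The SGC707 libraries were nearly equal and all above the DMSO libraries, with a log2 fold change of 0.69 (SE 0.21, 95% interval 0.21 to 1.18, edgeR adjusted p = 0.272), which stayed between 0.60 and 0.79 with any 1 library left out. After the GC and length correction the log2 fold change of NDUFA8 was 0.53. NDUFC2, a membrane-spanning subunit, averaged 39.4 ± 8.42 with SGC707 and 26.4 ± 9.58 with DMSO (normalised CPM, SD, n = 3 each), and its groups overlapped. NDUFA10, a kinase-like subunit facing the matrix, stood at 54.1, 54.0 and 62.4 normalised CPM with SGC707, against 72.8, 70.8 and 61.7 with DMSO, and overlapped by SGC707 C and DMSO C alone (log2 fold change -0.27, edgeR adjusted p = 0.499). NDUFA13, also known as GRIM-19, was uneven among the DMSO libraries, at 26.3, 17.9 and 18.4 normalised CPM with SGC707, against 9.63, 36.9 and 18.9 with DMSO, and its direction turned with single libraries (log2 fold changes from -0.42 to 0.55). The small membrane subunits NDUFA1, NDUFC1 and NDUFA11 had log2 fold changes of 0.03, -0.07 and 0.00499, with edgeR adjusted p from 0.924 to 0.998 and overlapping groups.

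The distal membrane arm, built on subunits of the NDUFB series, had 8 positive and 3 negative genes with a median log2 fold change of 0.43 (0.26 after the GC and length correction), and none passed the test. NDUFB1 (chromosome 14, 92116122 to 92121917), a single-pass membrane subunit, stood at 9.25, 8.49 and 9.90 normalised CPM with SGC707, against 5.53, 5.96 and 6.75 with DMSO. The groups were apart (log2 fold change 0.60, SE 0.21, 95% interval 0.11 to 1.09, edgeR adjusted p = 0.313), and the log2 fold change was 0.35 after the GC and length correction. NDUFB5 (chromosome 3, 179604690 to 179627647), another membrane-spanning accessory subunit, stood at 35.3, 29.2 and 30.2 normalised CPM with SGC707, against 22.5, 18.9 and 25.5 with DMSO. These groups were apart as well (log2 fold change 0.50, SE 0.18, 95% interval 0.08 to 0.93, edgeR adjusted p = 0.317). NDUFB8 (chromosome 10, 100523740 to 100530000), whose protein is widely used as an immunoblot readout of complex I, stood at 24.0, 22.8 and 18.7 normalised CPM with SGC707, against 14.9, 15.5 and 18.01 with DMSO. SGC707 C and DMSO C were close, and the log2 fold change was 0.44 (SE 0.19, 95% interval 0.00263 to 0.87, edgeR adjusted p = 0.389), or 0.26 after the GC and length correction. NDUFB6 and NDUFB3, small membrane subunits of the same arm, also had groups apart (edgeR adjusted p = 0.404 each). NDUFB6 ranged over 17.5 to 19.5 normalised CPM with SGC707 and 10.5 to 15.5 with DMSO, and NDUFB3 over 9.75 to 13.8 with SGC707 and 8.39 to 8.73 with DMSO.

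NDUFB10 (chromosome 16, 1959508 to 1961975), a cysteine-rich subunit of the distal arm, was the single gene of the 40 whose SGC707 libraries all lay below the DMSO libraries. It stood at 20.9, 21.4 and 12.9 normalised CPM with SGC707, against 27.9, 32.0 and 23.9 with DMSO. Its log2 fold change was the lowest of the 40, at -0.60 (SE 0.24, 95% interval -1.16 to -0.04, edgeR adjusted p = 0.366), and was -0.40 without SGC707 C and -0.69 after the GC and length correction. With library totals alone it was 0.13, where the median over all tested genes was 0.69. NDUFB2, an accessory membrane subunit, stood at 27.7, 20.6 and 9.66 normalised CPM with SGC707, against 13.3, 15.1 and 14.7 with DMSO. SGC707 A and B were above and SGC707 C was below every DMSO library, and without SGC707 C its log2 fold change of 0.43 became 0.75 and passed the test (edgeR adjusted p = 0.0426), while without SGC707 A it was 0.08 (edgeR adjusted p = 0.942). NDUFB2 is named because of that call. The accessory subunits NDUFB9, NDUFB4 and NDUFB11 had log2 fold changes of 0.31, -0.21 and 0.09, with overlapping groups and edgeR adjusted p from 0.608 to 0.924. NDUFAB1, the mitochondrial acyl carrier protein, which sits in both arms of the complex, averaged 18.6 ± 5.42 with SGC707 and 13.1 ± 3.24 with DMSO (normalised CPM, SD, n = 3 each), with overlapping groups and an edgeR adjusted p of 0.502. Its log2 fold change was 0.50, or 0.31 after the GC and length correction.

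The largest difference was in the readthrough transcript NDUFC2-KCTD14, which joins NDUFC2 to the next gene downstream. It had 119, 44 and 47 counts with SGC707, against 6, 12 and 10 counts with DMSO. All 3 SGC707 libraries were above all 3 DMSO libraries, and SGC707 A was far above the other two. In normalised CPM it averaged 4.54 ± 2.34 with SGC707 and 0.882 ± 0.301 with DMSO (SD, n = 3 each), a log2 fold change of 2.36 (SE 0.48, 95% interval 1.24 to 3.47). It did not pass the test on all libraries (edgeR adjusted p = 0.181) and passed without SGC707 C (log2 fold change 2.48, adjusted p = 0.0336). The counts of NDUFC2 itself were 698, 734 and 385 with SGC707, against 185, 255 and 407 with DMSO, so the readthrough row held 14.6%, 5.66% and 10.9% of the counts on both rows with SGC707, against 3.14%, 4.49% and 2.40% with DMSO. These shares did not overlap between the groups. KCTD14, at the other end of the readthrough, had 7, 9 and 3 counts with SGC707 and 2, 5 and 4 with DMSO and was too low to test. Exons of the readthrough overlap those of NDUFC2 and KCTD14 on the same strand of chromosome 11 (GRCh38, 78016971 to 78079865), and the sources do not say how shared reads were assigned, so the split between these rows is uncertain.

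The genes with SGC707 wholly above DMSO included NDUFC2-KCTD14, NDUFA8, NDUFB1, NDUFB5, NDUFS3, NDUFB8, NDUFB6, NDUFB3 and NDUFA5. Without SGC707 C, 3 of the 40 genes passed the test as higher (NDUFB2, NDUFS3 and NDUFC2-KCTD14) and 0 as lower, against 3.73% and 5.53% of 12392 tested genes.

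GC content separated the 40 genes in SGC707 C. Transcript GC content ran from 35.0% (NDUFA5) to 65.0% (NDUFB7), with a median of 48.3%, next to 48.4% for all tested genes. In length the 40 genes were not typical, with a median transcript of 1221 bases against 3533 for all tested genes. The correction took GC content and length together, and the share of each in its effect was not tested. Across the 40 genes the Spearman correlation of GC content with the deviation of a library from the gene means was -0.62 in SGC707 C, 0.46 in SGC707 A and 0.16 in SGC707 B, and -0.13 to 0.37 in the DMSO libraries. These values describe genes that share 1 library each and the same depth. Among the 13 genes with the highest GC content (54.0% to 65.0%), the median log2 difference from the DMSO mean was 0.45 in SGC707 A, 0.01 in SGC707 B and -0.91 in SGC707 C, where 10 of the 13 were below the DMSO mean. For all 4143 tested genes with a GC content above 53.9% these medians were 0.22, 0.09 and -0.60. SGC707 C was the lowest of all 6 libraries for 8 of those 13 genes.

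Among the 13 genes with the lowest GC content (35.0% to 45.4%), the median log2 difference from the DMSO mean was 0.30 in SGC707 A, 0.27 in SGC707 B and 0.30 in SGC707 C. All 4747 tested genes with a GC content of at most 45.4%, which includes genes below the range of these 13, had medians of -0.11, -0.04 and 0.32. The fitted log2 fold change was positive for 12 of these 13 genes and for 6 of the 13 with the highest GC content, and without SGC707 C for 12 and 11.

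**Figure D3:**
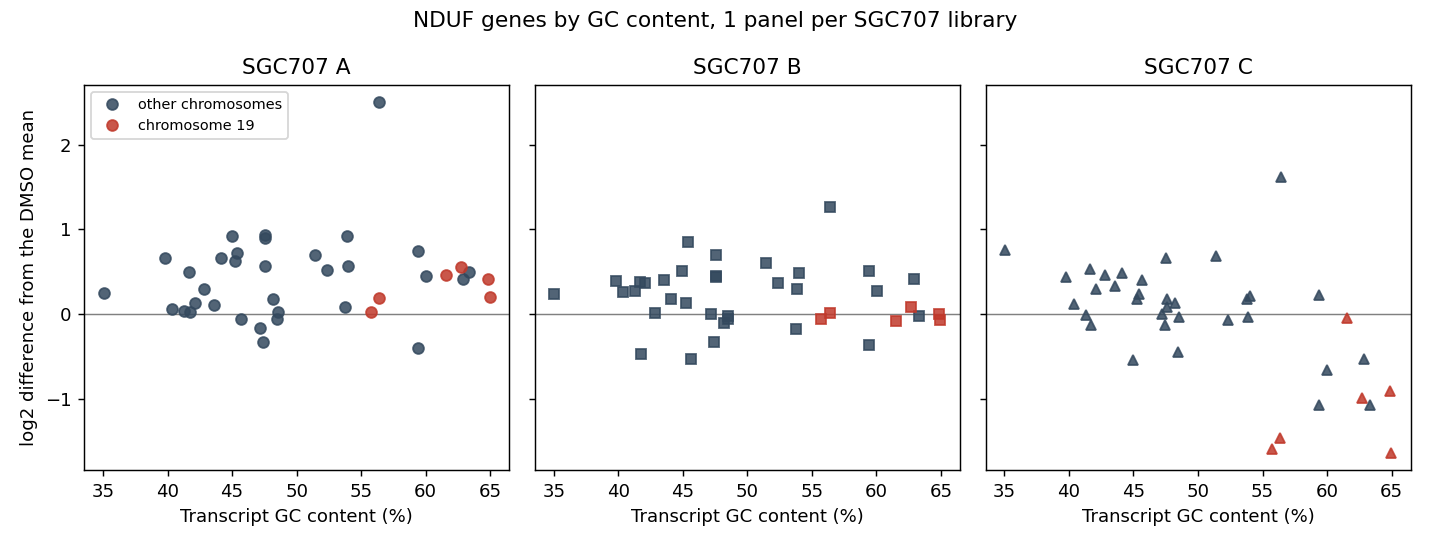
Log2 difference of 39 of the 40 genes from their DMSO mean (y axis) against transcript GC content (x axis, percent), with 1 panel for each SGC707 library and the 6 genes on chromosome 19 in red. In SGC707 C most genes of high GC content lie below 0 (10 of the 13 highest), down to -1.64 for NDUFB7, which SGC707 A and B do not show.

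The genes lie on 18 chromosomes, and 6 of them (NDUFA3, NDUFA7, NDUFA11, NDUFA13, NDUFB7 and NDUFS7) on chromosome 19, all with a GC content above 55%. NDUFB7 (GRCh38 chromosome 19, 14566078 to 14572062), an intermembrane-space subunit of the distal arm, stood at 25.3, 20.8 and 6.70 normalised CPM with SGC707, against 22.1, 20.7 and 23.0 with DMSO. NDUFA7 (8308768 to 8321396), an accessory subunit of the N module, stood at 9.18, 8.68 and 2.65 normalised CPM with SGC707, against 9.16, 10.4 and 7.74 with DMSO. NDUFA3 (54102728 to 54109257), of the proximal membrane arm, stood at 9.12, 8.05 and 2.57 normalised CPM with SGC707, against 7.25, 9.09 and 7.65 with DMSO. In all 3 genes SGC707 A and B lay close to the DMSO libraries and SGC707 C was lower than any other library, and their log2 fold changes of -0.31, -0.40 and -0.27 became 0.07, -0.03 and 0.10 without it. After the GC and length correction on all 6 libraries they were -0.53, -0.67 and -0.46, farther from 0 than before it (edgeR adjusted p = 0.0886, 0.217 and 0.367). These 3 genes and NDUFA13 were chosen after their values were seen.

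Levels per kilobase of the principal annotated transcript differed widely between the 40 genes. NDUFS5, an intermembrane-space subunit, had the highest level, at 154.8 normalised CPM per kb with SGC707 and 157.5 with DMSO, and was even across libraries at 87.5, 82.8 and 84.2 normalised CPM with SGC707, against 77.1, 90.6 and 91.2 with DMSO. NDUFA5 followed at 48.7 and 36.3 normalised CPM per kb, and NDUFA10 at 36.5 and 43.9, with SGC707 and DMSO. At the low end, NDUFV3 had 4.03 and 3.85, NDUFA9 4.17 and 3.44, and NDUFA4L2 1.002 and 0.967 normalised CPM per kb with SGC707 and DMSO. NDUFV3, an accessory subunit of the N module, stood at 20.3, 16.6 and 19.6 normalised CPM with SGC707, against 17.3, 20.6 and 16.1 with DMSO. NDUFA9, a subunit at the junction of both arms, stood at 30.8, 37.9 and 36.1 normalised CPM with SGC707, against 32.8, 25.03 and 28.5 with DMSO. Groups overlapped in both. NDUFA4L2, known as a hypoxia-induced gene, had 25, 24 and 7 counts with SGC707, against 20, 12 and 4 with DMSO. NDUFA4, the cytochrome c oxidase subunit, stood at 65.5, 75.4 and 68.2 normalised CPM with SGC707, against 47.5, 69.6 and 75.4 with DMSO, and per kb at 32.7 and 30.1 normalised CPM per kb (edgeR adjusted p = 0.839). The order depends on which transcript sets the length: with the longest coding transcript NDUFS5 stayed first, and NDUFA5 and NDUFA10 took ranks 19 and 23 of 40. NDUFA9 had rank 39 either way, since its annotated transcript is 8363 bases long in both choices.

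**Figure D4:**
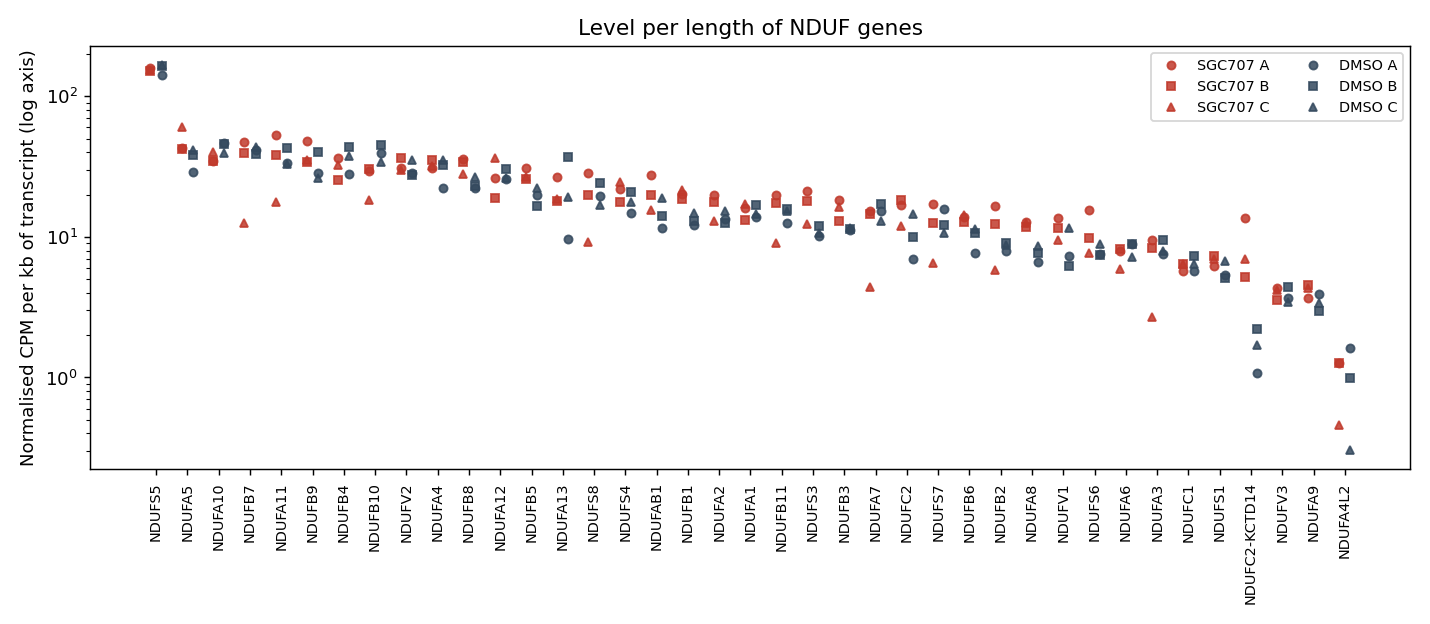
Normalised CPM per kb of principal transcript (log axis) of 39 of the 40 genes in each library, ordered by the mean of all 6. NDUFS5 leads at about 155 with SGC707 and 157 with DMSO, most genes lie between 5 and 50, and NDUFA4L2 is lowest.

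Neighbouring and copied sequence limits these counts. GENCODE names at least 1 pseudogene for 18 of the 40 genes, 55 in all, with 12 each for NDUFA5 and NDUFB4 and 6 for NDUFS5. Exons of 24 of the 40 genes overlap an exon of another annotated gene, 14 on the same strand and 18 on the opposite strand. Without the strand setting of the counting, reads of such pairs cannot be told apart.

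Of 14 genes for regulators of mitochondrial biogenesis, 13 were tested, 7 positive and 6 negative, with a median log2 fold change of 0.19, or 0.03 without SGC707 C. None passed by edgeR, limma-voom or DESeq2, which gave 11 of them an adjusted p, and 0 were higher and 2 lower at an unadjusted edgeR p under 0.05, against 5.62% and 7.13% of all tested genes. With library totals alone edgeR called 5, against 21.1% higher and 0.254% lower among all tested genes. HCFC1, a chromatin cofactor that binds PGC-1 family proteins, stood at 135.7, 108.9 and 88.2 normalised CPM with SGC707, against 210.5, 194.4 and 141.3 with DMSO (log2 fold change -0.71, edgeR adjusted p = 0.275). PPRC1, a coactivator of the same family, stood at 64.5, 63.1 and 45.7 normalised CPM with SGC707, against 90.5, 100.4 and 73.5 with DMSO (log2 fold change -0.61, edgeR adjusted p = 0.290). The groups did not overlap in either gene. With library totals alone both fold changes were near 0 (0.01 and 0.11), where the median over all tested genes was 0.69. ESRRA, a nuclear receptor of the oxidative metabolism programme, stood at 9.97, 13.1 and 2.65 normalised CPM with SGC707, against 4.96, 4.01 and 4.86 with DMSO (log2 fold change 0.90, edgeR adjusted p = 0.504), and passed without SGC707 C (1.32, edgeR adjusted p = 0.0277), while it was 0.46 without SGC707 B (edgeR adjusted p = 0.846). NRF1 (0.24), GABPA (0.26) and YY1 (-0.02) had edgeR adjusted p from 0.620 to 0.968. PPARGC1A, which encodes PGC-1 alpha, had 2 counts in SGC707 A and 2 in DMSO A and 0 in the other 4 libraries, where a difference was not detectable.

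Assembly factors, which build complex I without staying in it, gave 14 positive and 7 negative log2 fold changes among 21 genes, with a median of 0.15. None passed by edgeR, DESeq2 or limma-voom, and 3 were higher and 2 lower at an unadjusted edgeR p under 0.05, against 5.62% and 7.13% of all tested genes. With library totals alone edgeR called 6, against 21.1% higher and 0.254% lower among all tested genes. AIFM1, which supports import of intermembrane-space subunits, stood at 22.5, 24.8 and 28.99 normalised CPM with SGC707, against 13.4, 14.2 and 18.4 with DMSO (log2 fold change 0.73, edgeR adjusted p = 0.262). NDUFAF2, a late factor that holds the place of NDUFA12, stood at 7.98, 7.36 and 9.98 normalised CPM with SGC707, against 14.7, 15.9 and 11.4 with DMSO (log2 fold change -0.73, edgeR adjusted p = 0.278; -0.06 with library totals alone). DMAC2, a factor of the distal membrane arm, stood at 20.001, 20.4 and 15.3 normalised CPM with SGC707, against 28.5, 27.8 and 26.02 with DMSO (log2 fold change -0.56, edgeR adjusted p = 0.291; 0.13 with library totals alone). In these 3 genes the groups did not overlap. The median over all tested genes was 0.69 with library totals alone. Without SGC707 C, NDUFAF2 passed as lower (-0.87, edgeR adjusted p = 0.0411). FOXRED1 (0.86, edgeR adjusted p = 0.0402) and NDUFAF8 (1.43, edgeR adjusted p = 0.0272) passed as higher in that fit. Of all tested genes there, 3.73% passed as higher and 5.53% as lower. In SGC707 C itself NDUFAF8 stood at 2.96 normalised CPM, below every DMSO library (4.40 to 5.63).

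For the 7 mitochondrially encoded subunits of the same complex the median log2 fold change was -1.63 and 6 were negative. None passed by edgeR with TMM scaling or by limma-voom on all libraries. All 7 had an unadjusted edgeR p under 0.05, 1 higher and 6 lower, against 5.62% and 7.13% of all tested genes. MT-ND6, the subunit encoded on the opposite mitochondrial strand to the others, stood at 61.9, 60.1 and 60.5 normalised CPM with SGC707, against 26.8, 21.5 and 28.4 with DMSO (log2 fold change 1.25, edgeR adjusted p = 0.115). The log2 fold changes of MT-ND1 and MT-ND4L were -1.66 and -1.92 (edgeR adjusted p = 0.190 and 0.202), and the lowest among the 40 nuclear genes was -0.60. DESeq2 on all libraries called all 7, where it called 47 genes higher and 239 lower of 15272. So did edgeR without SGC707 C, where 3.73% of all tested genes passed as higher and 5.53% as lower. On all libraries, edgeR called MT-ND6 (log2 fold change 0.99, adjusted p = 0.0476) once GC content and length were corrected for, and 6 of the 7, all but MT-ND3, with library totals alone. Among all tested genes, 9 were called higher and 53 lower after that correction, and 21.1% higher and 0.254% lower with library totals.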

How the data were processed

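Per the labels' protocols, DNase-treated total RNA was used for mRNA isolation and paired-end Illumina sequencing. Per the submitters' processing notes, HISAT2 and StringTie were used with GRCh38; their versions, the annotation and the strand setting are not given in these sources. The authors deposited whole-number read counts per gene symbol, not scaled between libraries. Total counts were 11658728 to 15437602 per library, and limits from a count of 0 (3 counts) cover counting error only. The test was that of edgeR 4.0.16 (R 4.3.3) on the 12196 genes left by filterByExpr, with TMM scaling, robust glmQLFit and glmQLFTest of SGC707 against DMSO, no covariate, and Benjamini-Hochberg adjusted p under 0.05 over all tested genes. A standard error is the absolute log2 fold change over the root of its F statistic. Log2 differences of single libraries used CPM plus 0.5. Coordinates, GC content and length came from GENCODE release 29 on GRCh38 (longest coding transcript; APPRIS principal transcript for levels per kb), and promoter windows from RefSeq. All 40 genes matched by symbol. No pair of libraries in a group agreed within sampling noise (chi-square per degree of freedom at least 11.9).

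The genes and gene lists were chosen with earlier results of these data known. Values in every library are given for core subunits, the genes with the smallest p, the 3 highest and 3 lowest by level per kb and the extremes of fold change, and 3 genes of each other list are those with the smallest p; other genes were named after their values were seen. For 1 gene, individual values are not reported here; it is counted in the totals. The procedure was tested on simulated counts that held no GC trend, so that test does not bear on the trend in SGC707 C. Alternatives were RLE factors, library totals, no filter, a stricter filter (a mean count of 50 with 1 CPM in at least 3 libraries), limma-voom (limma 3.58.1), DESeq2 1.42.0, no mitochondrial genes, lowess trends (span 0.3) on GC content and length as offsets, a block, each library left out and a threshold of 0.01.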

Additional observations from a re-analysis of the deposited data

How the results depend on the processing

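The count of 0 higher and 0 lower NDUF genes held under RLE factors, no filter, the stricter filter (38 of the 40 genes tested), DESeq2 (38 with an adjusted p), limma-voom, the fit without mitochondrial genes, the GC and length correction, the replicate block and a threshold of 0.01. It was 15 higher with library totals alone and 0 to 3 with 1 library left out, 3 without SGC707 C. Over all genes, higher and lower calls were 2574 and 31 with library totals, 47 and 239 with DESeq2, 9 and 53 after the correction, 0 and 0 with the replicate block and at 0.01, 0 higher with limma-voom, 5 lower with no filter, and 0 to 462 and 0 to 685 with 1 library left out, highest without SGC707 C. The median log2 fold change of the 40 genes was 0.865 with library totals and 0.134 to 0.249 with 1 library left out. With library totals the sign turned for NDUFA10 (0.40), NDUFA13 (0.69), NDUFA3 (0.48), NDUFA7 (0.36), NDUFB10 (0.13), NDUFB7 (0.42), NDUFS5 (0.65), NDUFS7 (0.65), NDUFS8 (0.68), DMAC2 (0.13), HCFC1 (0.00558) and PPRC1 (0.11), where the median over all genes was 0.69. It also turned for NDUFA13 with limma-voom (0.13) and with the replicate block (0.10), and for NDUFS7 (0.00402) and NDUFV2 (-0.0701) after the correction; the cause was not tested. With 1 library left out, log2 fold changes ranged from -0.42 to 0.55 for NDUFA13, -0.58 to 0.10 for NDUFA3, -0.36 to 0.65 for NDUFA4L2, -0.67 to 0.0680 for NDUFB7, -0.10 to 0.0140 for NDUFS5, -0.41 to 0.21 for NDUFS7, -0.48 to 0.25 for NDUFS8 and -0.0103 to 0.17 for NDUFV3. Deviations of same-letter libraries from their group means correlated at 0.08 (A), -0.02 (B) and 0.10 (C) across genes, and those of different letters at -0.11 to 0.10. With 3 libraries in each mean, these values cannot decide whether shared letters pair the libraries. Low counts limit NDUFA4L2 and NDUFC2-KCTD14, with as few as 4 and 6 per library.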
